A study of Mus musculus with 6 samples.

Results

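Parthenogenetic embryos are embryos that develop from an egg activated without sperm, so that both of their chromosome sets come from the mother. Here such mouse embryos were compared, transcript by transcript, with a common reference RNA on all 6 arrays of the series, and the members of the comparison were therefore all 6 of 6 samples. On 3 arrays the eggs, which rest at metaphase II of meiosis, had been activated with cycloheximide, which blocks protein synthesis, and on the other 3 with strontium chloride, which makes the egg release calcium. Cytochalasin D, which keeps the egg from extruding a polar body, was given with both agents. All embryos were then cultured for 60 h in KSOM medium, and mRNA corresponding to 25 pooled embryos went through 2 rounds of amplification before Cy3 labelling. The other channel of every array held Stratagene Universal Mouse Reference RNA, a commercial pool of RNA from mouse cell lines, amplified in 1 round and labelled with Cy5. Nothing in the labels ties the arrays of a group to separate cultures, and the p-values therefore measure the spread of these samples alone, which may be technical.

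Before implantation the embryo stops relying on transcripts stored by the oocyte, transcribes its own genome and compacts. It then sets apart an outer trophectoderm from an inner cell mass that later yields epiblast and primitive endoderm. The sample labels do not give the stage reached at 60 h, so these lineages need not have formed in the embryos measured. Cells of the inner cell mass use a set of pluripotency genes that most other cells silence. The reference pool stands for cells growing in culture. A ratio against it shows which transcripts are richer in embryos than in such cells, and not how abundant a transcript is in the embryo.

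All values below are log2 ratios of embryo over reference, where 1 unit is a 2-fold difference and a positive value means more signal from the embryos. The direction was taken as likely from the dyes and from the scanner software's convention of red over green, since the deposited values do not state it. If it were the opposite, every sign would turn. No array had its dyes exchanged, so dye, rounds of amplification and a true difference in level cannot be told apart for a single probe. In such bulk samples fewer cells of a type and less RNA per cell cannot be told apart either. The deposited ratios stop at 100-fold, which is 6.64 on the log2 scale, and a value at this limit is a lower bound on the size. Spot intensities were not used here, so a ratio near 0 can stand for equal levels or for a transcript undetected in both channels. The 6 array medians lay between 0.11 and 0.22, and Pearson correlations between arrays over all tested probes lay between 0.771 and 0.958.

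The embryos differed widely from the reference. Of 21067 probes tested, 8735 were higher in embryos and 5903 lower at an adjusted p under 0.05 (limma, Benjamini-Hochberg adjustment, n = 6 arrays), which is 41.5% and 28% of the probes. Because so many probes passed, the calls below rest on a stricter test, limma's test of a difference of more than 2-fold at the same adjusted threshold. It called 1591 probes higher in embryos (7.55%) and 2497 lower (11.9%), and 4087 of these 4088 lay on 1 side of 0 on 6 of 6 arrays. The median of all probe means was 0.18 rather than 0. With every array centred on its own median, the share of higher probes among the calls went from 59.7% to 48.9% by the adjusted p against 0 and from 38.9% to 31.4% by the 2-fold test.

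Among the 5908 tested probes that carry exactly 1 gene symbol, 2448 were higher (41.4%) and 1508 lower (25.5%) by the adjusted p against 0, and 320 were higher by the 2-fold test (5.42%) and 633 were lower (10.7%). The called probes had a median ratio of 2.09 when higher and -2.47 when lower. Extreme ratios were more often on the reference side, with 78 probes at -4 or below and 26 at 4 or above, which is a difference of at least 16-fold. Counted by gene, 307 of 4630 genes had a probe called higher and none lower (6.63%), 601 had a probe called lower and none higher (13%), and 6 had probes called both ways (0.13%). At an adjusted p under 0.05 against 0, these counts were 1920, 1188 and 226 genes. The SD over the 6 arrays had a median of 0.38 per probe, against an SD of 1.48 of the probe means.

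**Figure D1:**
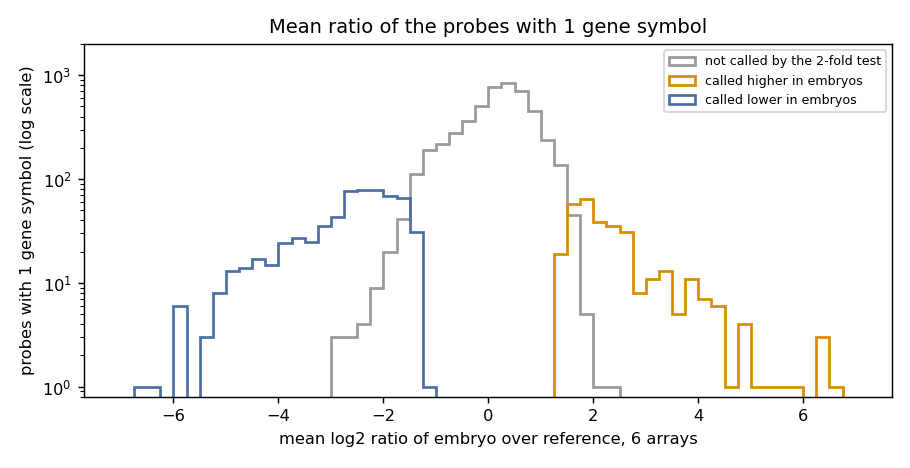
Histogram of the mean log2 ratio of embryo over reference (x axis, 6 arrays) for the 5908 probes with 1 gene symbol, with the number of probes on a log scale (y axis). The 320 probes called higher by the 2-fold test (orange) and the 633 called lower (blue) form the tails, and the lower tail holds more probes beyond 4 log2 units (78 against 26).

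The 5 marker genes of the comparison come first. They were chosen as embryo-high or reference-high with results of these data known, so their values are a description. Tdgf1 encodes Cripto, a co-receptor for the growth factor Nodal, and its probe was at the upper limit of 6.64 on 6 of 6 arrays, so that its transcript was at least 100-fold higher in embryos. It has no error, since the limit removes its spread. Dppa3, also called Stella, protects the maternal genome from demethylation, and it measured 5.10, 5.53 and 6.64 on the cycloheximide arrays and 6.61, 5.87 and 6.25 on the strontium arrays. Every array lay above 5 and 1 reached the limit, and the mean was 5.999 ± 0.62 (SD, n = 6, adjusted p of the 2-fold test = 3.46e-06, limma).

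Dppa2, a chromatin protein of pluripotent cells that acts together with Dppa4, had 2 probes of unequal ratio. Its higher probe measured 5.71, 6.14 and 6.64 after cycloheximide and 6.40, 6.23 and 6.64 after strontium, with a mean of 6.30 ± 0.35 (adjusted p of the 2-fold test = 5.08e-07, limma, n = 6). Its lower probe measured 2.42, 1.82 and 2.18 after cycloheximide and 1.15, 1.77 and 1.94 after strontium, with a mean of 1.88 ± 0.43 (adjusted p of the 2-fold test = 0.00358, limma, n = 6). Both probes were called, and their ranges did not overlap.

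The stromal markers lay at the other end. Col1a1, the main chain of fibrillar collagen, measured -4.80, -5.09 and -6.64 on the cycloheximide arrays and -3.96, -5.04 and -5.73 on the strontium arrays. All 6 arrays were far below 0 and 1 reached the lower limit, with a mean of -5.21 ± 0.90 (adjusted p of the 2-fold test = 3.73e-05, limma, n = 6). Sparc, a secreted matrix glycoprotein, measured -5.85, -5.79, -5.55, -5.62, -5.94 and -5.91. Its spread of 0.16 (SD, n = 6) was small beside a mean of -5.77. The choice of these markers fixes their separation into embryo-high and reference-high genes.

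**Figure D2:**
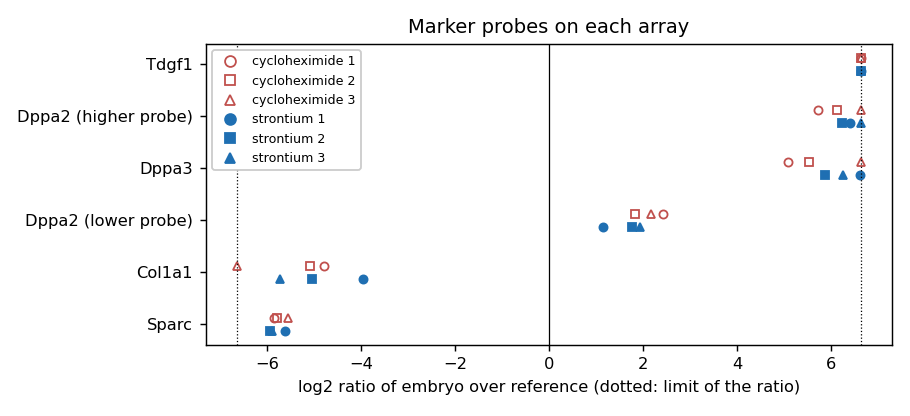
Log2 ratio of embryo over reference (x axis) on each of the 6 arrays for the 6 probes of the 5 marker genes (y axis), with open symbols for cycloheximide, filled symbols for strontium and dotted lines at the limit of the deposited ratio. The probes of Tdgf1, Dppa2 and Dppa3 lie above 0 on all arrays and those of Col1a1 and Sparc below -3.

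The sequences just upstream of the annotated starts show how different the promoters behind such ratios can be. They are given for 3 genes of the embryo-high end and 3 of the reference-high end, as the 150 bases before the start, 5′ to 3′ on the gene's strand, from RefSeq on GRCm38.p6. Capitals mark GGGCGG, the core of the GC box bound by Sp1-type factors, read on either strand (CCGCCC on the other), and overlapping matches are joined.
Tdgf1, chr9:110946159-110946308, minus strand: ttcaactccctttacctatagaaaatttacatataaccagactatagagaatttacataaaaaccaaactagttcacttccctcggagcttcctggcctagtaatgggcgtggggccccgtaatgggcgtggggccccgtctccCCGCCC
Nolc1, chr19:46075697-46075846, plus strand: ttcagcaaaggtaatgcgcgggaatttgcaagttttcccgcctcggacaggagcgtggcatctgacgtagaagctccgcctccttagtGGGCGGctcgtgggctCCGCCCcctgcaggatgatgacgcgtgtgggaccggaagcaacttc
Jag2, chr12:112929496-112929645, minus strand: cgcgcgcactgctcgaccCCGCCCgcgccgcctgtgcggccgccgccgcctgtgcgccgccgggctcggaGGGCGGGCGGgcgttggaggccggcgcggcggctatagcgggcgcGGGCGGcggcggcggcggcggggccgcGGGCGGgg
Sparc, chr11:55420081-55420230, minus strand: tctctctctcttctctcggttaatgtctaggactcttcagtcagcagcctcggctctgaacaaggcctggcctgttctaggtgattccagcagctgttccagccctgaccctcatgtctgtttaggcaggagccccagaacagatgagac
S100a6, chr3:90612744-90612893, plus strand: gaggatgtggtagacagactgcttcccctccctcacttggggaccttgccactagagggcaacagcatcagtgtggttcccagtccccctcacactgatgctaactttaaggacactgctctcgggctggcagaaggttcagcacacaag
Slc2a1, chr4:119108595-119108744, plus strand: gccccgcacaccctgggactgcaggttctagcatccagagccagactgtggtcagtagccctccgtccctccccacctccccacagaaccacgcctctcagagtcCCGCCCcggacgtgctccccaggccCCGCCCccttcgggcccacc
The Jag2 stretch held 5 matches and the Sparc and S100a6 stretches held 0. The 300-base promoter of Jag2 was 86.0% G and C, against 41.7% for Tdgf1, 57.0% for Nolc1, 55.3% for Sparc, 49.3% for S100a6 and 65.3% for Slc2a1. These 6 promoters thus differed within each end as well as between the ends. Dppa2, Dppa3, Dppa4, Col1a1 and Fn1 are named only.

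The median G and C content over 300 bases (250 before the start and 50 after) was 60.7% for 327 promoters of 247 genes called higher, 61.3% for 655 promoters of 501 genes called lower and 59.7% for 4814 promoters of all tested genes. GGGCGG on either strand occurred in 60.6%, 64.3% and 57.0% of these promoters, against 35.7% of all 32851 promoters of the table. TATAAA, the TATA box, occurred in 9.79%, 7.48% and 8.64%, and ATGCAAAT, the octamer motif, in 0.306%, 1.53% and 1.27%. These shares describe letters in a window and no binding.

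The list of pluripotency and germ line regulators had 16 measured genes, of which 5 were called higher (31.2%) and 3 lower (18.8%), beside 6.63% and 13% of all genes. Its median gene ratio was 0.45, beside 0.15 over all genes. Tdgf1, Dppa2, Dppa3, Dppa4 and Rif1 were the 5 higher genes, and without the 3 markers among them 2 of 13 genes were higher (15.4%) and 3 lower (23.1%), with a median of 0.37. Over all 16 genes the count of higher genes was 5 without any single array. With probes at the limit left out, Tdgf1 and Dppa3 dropped out, and 3 of the remaining 14 genes were higher and 3 lower. Dppa4, the partner of Dppa2, measured 2.07, 2.60, 3.44, 2.58, 2.42 and 3.14 on the 6 arrays. No array was below 2, and its mean was 2.71 ± 0.50 (adjusted p of the 2-fold test = 0.000232, limma, n = 6). Both probes of Rif1, a telomere and replication-timing protein, were called higher, with means of 2.06 and 2.46.

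Nanog, a central transcription factor of the inner cell mass, had a mean of 1.03 and Esrrb, an orphan nuclear receptor that supports it, of 1.16. Both were above 0 at an adjusted p under 0.05 but were not called by the 2-fold test. Klf5 at a gene mean of 0.48, Sall4 at 0.42 and Tfcp2l1 at 0.37 were smaller, and Zfp42 at 0.18 passed neither test. By the adjusted p against 0, 11 of the 16 genes were higher and 3 lower, with Trim28 at -0.77 among the lower, and 1 had probes both ways. Over all 4630 genes 1920 were higher and 1188 lower. Called lower by the 2-fold test were Tex14, which maintains bridges between germ cells, at -2.90, and Stat3, the transcription factor downstream of LIF, at -1.68. So was Lin28b, an RNA-binding protein that blocks let-7 processing. Lin28b had 8 probes with means from -1.91 to 0.83, of which 2 were called lower and the others were not called by the 2-fold test, and its second call (adjusted p of the 2-fold test = 0.0156, limma) was lost without the second cycloheximide array (adjusted p = 0.0503, limma) and where runs of 200 probe numbers were centred and the array median put back (adjusted p = 0.117, limma).

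Among all other genes with 1 symbol, the 25 with the largest embryo-high ratios below the limit follow. Cldn13, a claudin of tight junctions, measured 4.91, 5.24 and 5.62 after cycloheximide and 6.36, 5.78 and 5.48 after strontium, with a mean of 5.57 ± 0.49. Igsf23, an immunoglobulin superfamily member, measured 5.69, 6.05 and 5.93 and then 4.77, 4.85 and 5.15, with a mean of 5.41 ± 0.56. For both genes every array exceeded 4, and the adjusted p of the 2-fold test was 2.19e-06 and 3.8e-06 (limma, n = 6).

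Nolc1 encodes a phosphoprotein that shuttles between the nucleolus and Cajal bodies. It measured 5.11, 5.27, 5.54, 4.66, 5.20 and 5.03, and its mean of 5.14 had an SD of only 0.29. Coil, the scaffold of the Cajal body, was higher too, at 3.98 ± 0.34. Sycp2, a component of the synaptonemal complex that joins meiotic chromosomes, had a mean of 4.75 with a wide spread of 0.99, from 2.89 on the first strontium array to 5.56 on the second. Oog4, an oogenesin of oocytes and early embryos, was steadier, at 4.08 ± 0.24.

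Jag2, a Notch ligand, measured 4.78, 4.90, 3.41, 4.95, 5.37 and 4.15, and the third cycloheximide array was its lowest. The kinase Jak1, which acts below cytokine receptors, stood at 4.13 ± 0.35 and Eda, the ligand ectodysplasin, at 3.92 ± 0.50. Folr1, a receptor for folate, had a mean of 4.05 ± 0.65, with 3.17 and 3.54 on the first cycloheximide arrays and 4.83 on the third. Rab11fip1, an effector of recycling endosomes, stood at 4.45 ± 0.45 and Map7, which stabilizes microtubules, at 4.41 ± 0.30.

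Other genes among the 25 largest included Glrx5, a mitochondrial glutaredoxin of iron-sulfur cluster assembly, at 4.47 ± 0.50, and Fancm, a DNA repair helicase, at 3.89 ± 0.48. Aspg, an asparaginase, stood at 4.34 ± 0.54, and Ggt6, of the gamma-glutamyltransferase family, at 4.22 ± 0.42. Genes named for functions of adult organs were also present, such as the sweet taste receptor Tas1r2 at 4.02 ± 0.18 and Pcsk1n, an inhibitor of a prohormone convertase, at 4.77 ± 0.76. The remaining genes of the 25 were Ankrd10, Poteg, Zfp740, Lrrc15, Ccdc192, 4930429H19Rik and Sult2a8, with means from 3.95 to 4.94. The lowest single value among the 25 was the 2.89 of Sycp2.

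**Figure D3:**
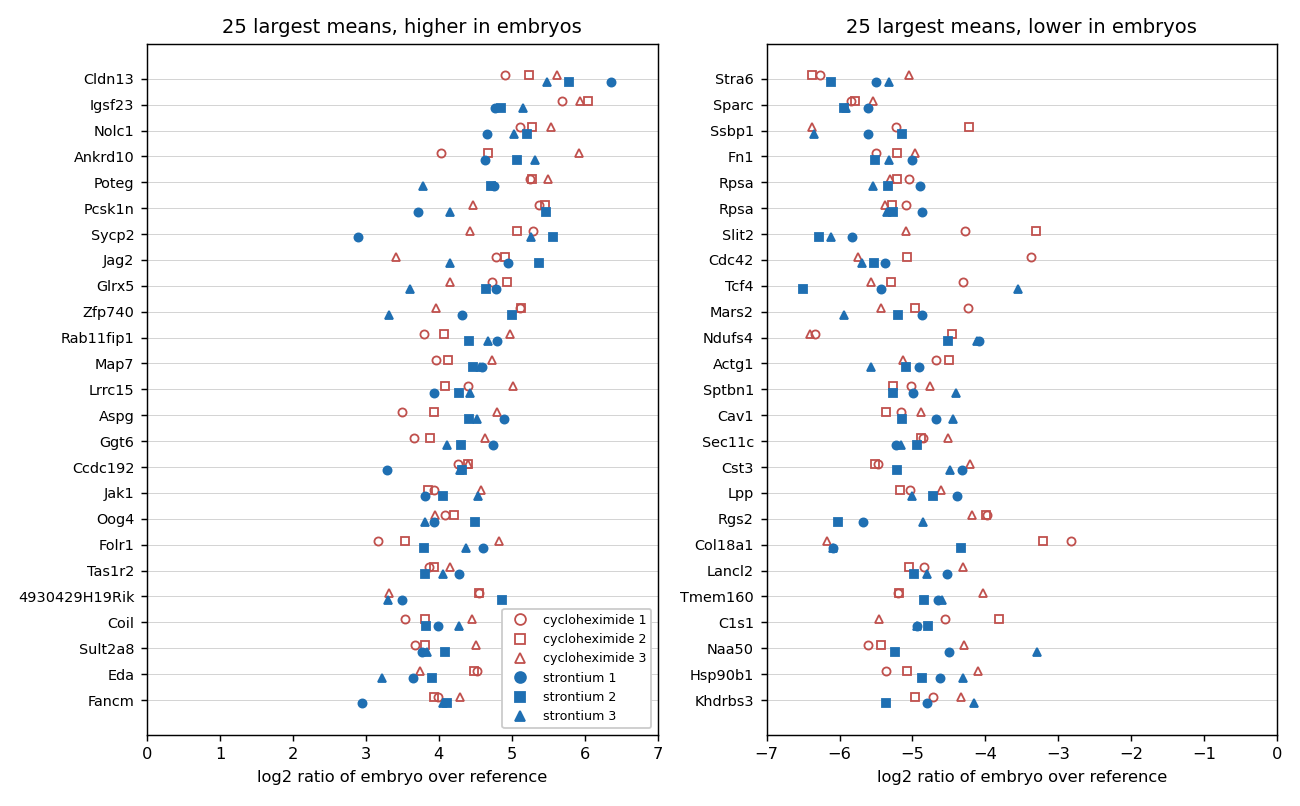
Log2 ratio of embryo over reference (x axes) on each array for the 25 probes with the largest means in each direction that reach the limit on no array (y axes, gene symbols, with open symbols for cycloheximide and filled symbols for strontium). Cldn13 leads the embryo-high side at a mean of 5.57, and Stra6 and Sparc lead the reference-high side at -5.77.

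On the reference-high side S100a6, a calcium-binding protein abundant in fibroblasts, was at the lower limit on 6 of 6 arrays, hence at least 100-fold lower in embryos. Stra6, the cell-surface receptor for retinol-binding protein, measured -6.27, -6.38, -5.05, -5.50, -6.12 and -5.32, with a mean of -5.77 ± 0.55. Fn1, which encodes fibronectin, had 1 probe at -5.50, -5.21, -4.96, -5.00, -5.51 and -5.32 and another whose mean was 0.31. The first probe was called lower (adjusted p of the 2-fold test = 4.68e-07, limma, n = 6) and the second was not called by that test. Cav1, the coat protein of caveolae, stood at -4.94 ± 0.34, and Lpp, a protein of cell adhesions, at -4.82 ± 0.30.

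The list of basement membrane and stromal matrix genes had a median of -0.45. Of its 23 measured genes 11 were called lower (47.8%) and 1 higher (4.35%), beside 13% and 6.63% of all genes. The 11 include the markers Col1a1 and Sparc, which were chosen as reference-high. Col4a1, Col4a2, Hspg2 and the measured laminin and nidogen genes are not in this list but among the primitive endoderm genes below. The list also holds genes of other kinds, such as Cav1 and S100a6. The lower genes included Mgp, an inhibitor of calcification, at -3.03, the collagen chains Col5a2 at -2.76, Col8a1 at -2.46 and Col6a1 at -2.39, and the collagen chaperone Serpinh1 at -2.69. The higher gene was Tagln2, an actin-binding protein, by 1 of its 2 probes at 1.93 ± 0.77, a call lost after centring (adjusted p = 0.0704, limma) and without any 1 of 5 arrays (all but the third strontium array, adjusted p from 0.0502 to 0.0755, limma). By the adjusted p against 0, where 1920 of all 4630 genes were higher and 1188 lower, 5 of the 23 genes were higher and 12 lower. The higher ones besides Tagln2 were the collagen-modifying enzymes Plod1 at 0.84 and Plod2 at 0.32, Igfbp4 at 0.52 and S100a4 at 0.49. Col6a2, Timp3, Igfbp3 and Igfbp5 had means from -0.27 to 0.28 and passed neither test.

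Slit2, a guidance ligand, had a mean of -5.15 ± 1.17, and its arrays ranged from -3.30 on the second cycloheximide array to -6.29 on the second strontium array. C1s1, a complement protease, stood at -4.75 ± 0.55 and Cst3, the protease inhibitor cystatin C, at -4.87 ± 0.59. Sec11c, of the signal peptidase that trims secreted proteins, was among the steadiest, at -4.93 ± 0.25. Col18a1, of basement membranes, was among the least steady, at -2.82, -3.20, -6.17, -6.09, -4.33 and -6.09, with a mean of -4.78 ± 1.54.

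Genes with roles in every cell also stood among the 25 lowest. Rpsa, a protein of the small ribosomal subunit, had 2 of its 5 probes at -5.22 ± 0.23 and -5.21 ± 0.19. Its highest probe had a mean of 0.63 and was above 0 at an adjusted p under 0.05. Actg1, cytoplasmic gamma actin, had 1 of 4 probes at -4.98 ± 0.38. Mitochondrial genes were Ssbp1, which binds mitochondrial DNA, at -5.49 ± 0.82, Mars2, a tRNA synthetase, at -5.11 ± 0.57, and Ndufs4, of respiratory complex I, at -4.99 ± 1.08. Others of the 25 were Tcf4, Sptbn1, Rgs2, Lancl2, Tmem160, Naa50, Hsp90b1 and Khdrbs3, with means from -4.72 to -5.11.

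Lists of marker genes for the lineages of the early embryo were counted in the same way, beside 6.63% of all genes higher and 13% lower, and no difference between lists was tested. Of 12 measured trophectoderm genes, 1 was called higher (8.33%) and 0 lower, with a median of 0.43. By the adjusted p against 0, where 1920 of all 4630 genes were higher and 1188 lower, 6 were higher and 2 lower. The called gene was Fgfr2, the receptor through which FGF signals act on trophectoderm, at 1.97, 1.89, 1.97, 1.16, 2.00 and 2.48. All arrays were above 1, and the mean was 1.91 ± 0.42 (adjusted p of the 2-fold test = 0.00281, limma, n = 6). Dsc2, a desmosomal cadherin, at 1.45 ± 0.69 and Tfap2a, a transcription factor, at 0.87 ± 0.63 were above 0 at an adjusted p under 0.05, but not on the cycloheximide arrays alone, where the means were 1.01 and 0.35.

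Primitive endoderm genes went both ways. Of 16 measured, 2 were called higher (12.5%) and 6 lower (37.5%), with a median of -1.43. Amn, which encodes amnionless, a partner of the endocytic receptor cubilin, measured 4.34, 4.58, 3.40, 3.65, 4.41 and 2.73, with a mean of 3.85 ± 0.72 (adjusted p of the 2-fold test = 8.82e-05, limma, n = 6). Apoe, a lipoprotein of lipid transport, was higher at 2.57 ± 0.35. The transcription factors Sox17 at 1.00 ± 0.17 and Gata4 at 0.92 ± 0.99 were not called by the 2-fold test. Hnf4a, another transcription factor of the list, at -0.061 and Ttr at 0.50 passed neither that test nor the adjusted p against 0. Gata4 passed the adjusted p against 0 with all arrays and lost it under 10 alternatives, among them the replicate block and the array weights.

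The lower primitive endoderm genes were makers of basement membrane. Sparc, a marker chosen as reference-high, and Serpinh1 were among them. The others were Hspg2, perlecan, at -2.68 ± 0.45, the type IV collagens Col4a2 at -2.57 and Col4a1 at -1.96, and Lamb1, a laminin chain. Lamb1 measured -5.06, -4.52, -2.92, -3.70, -5.30 and -2.48 by 1 probe, whereas its other probe had a mean of 0.63. The related chains Lamc1 at -1.73, Nid1 at -1.42 and Nid2 at -1.45 were below 0 at an adjusted p under 0.05 without passing the 2-fold test, and Lama1 was above 0 at 0.54.

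Genes of compaction, polarity and junctions stood on both sides, with 1 of 18 called higher (5.56%), 2 lower (11.1%) and a median of -0.17. The higher gene was Pard6b, of the apical polarity complex, at 1.56 ± 0.37, a call lost after centring (adjusted p = 0.0874, limma) and without the first or second cycloheximide or the third strontium array (adjusted p from 0.051 to 0.0577, limma). Tight junction genes Ocln at 1.18 and Tjp1 at 0.94, the apical gene Pard3 at 0.93, the regulator Amot at 1.17 and E-cadherin (Cdh1) at 0.70 were above 0 at an adjusted p under 0.05 only. Called lower by the 2-fold test were Itgb1, the common beta chain of matrix receptors, at -3.07 ± 0.64, and Ctnna1. Ctnna1, which links cadherins to actin, stood at -2.04 ± 0.37. Gja1 at -1.20, Amotl2 at -1.03, Itga6 at -0.96, Rdx at -0.83 and F11r at -0.55 were among those below 0 at an adjusted p under 0.05 only. By that adjusted p, 7 of the 18 genes were higher and 9 lower.

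Oocyte and maternal transcripts were few among the measured genes, with 1 of 7 called higher, 1 lower and a median of 0.26. Zp2, a coat protein of the egg, measured 2.31, 1.76, 1.58, 1.91, 2.14 and 0.71, with a mean of 1.73 ± 0.57 and a call (adjusted p of the 2-fold test = 0.0248, limma, n = 6) that was lost after centring (adjusted p = 0.0609, limma) and without the first or second array of either group (adjusted p from 0.0618 to 0.0788, limma). Dnmt1, the maintenance DNA methyltransferase, was lower, at -2.13, -2.30, -2.25, -2.68, -2.72 and -2.42. The oocyte growth factor Bmp15 and the oocyte genes Khdc3, Tcl1b1 and Tcl1b3 had gene means from 0.21 to 0.37, and the sign of Tcl1b1 turned once runs of 200 probe numbers were centred. Of 6 genes of early genome activation, Eif1a, a translation initiation factor, was higher at 1.74 ± 0.33, and Hspa8, a constitutive heat shock protein, had 1 of 5 probes lower at -2.77 ± 0.51. By the adjusted p against 0, Hspa8 had 3 probes higher and 2 lower, with a highest probe mean of 1.17 and a gene mean of -0.084.

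Signalling ligands and receptors had 3 of 35 genes called higher and 3 lower (8.57% each), with a median of 0.35. The higher genes were Jag2, Fgfr2 and Tdgf1, the last a marker chosen as embryo-high. The lower genes were the EGF receptor Egfr, by both of its probes at -3.92 and -2.08, Tgfbr2, a TGF-beta receptor, at -3.59 ± 1.03, and Vegfa, an angiogenic growth factor, at -3.37 ± 0.57. Egfr measured -4.74, -2.92, -2.75, -4.54, -5.00 and -3.57 by its lower probe, so that arrays of both groups were mixed along its range. Nodal, whose receptor complex needs Tdgf1, had 4 probes with a gene mean of 0.066, and none was called by the 2-fold test.

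Markers of cells of other kinds were counted too, although a ratio against a pool cannot show whether such cells were present. Of 20 liver, kidney and other organ genes, 10 were higher and 2 lower by the adjusted p against 0, beside 1920 and 1188 of all 4630 genes. The list median was 0.40, and by the 2-fold test 1 gene was called higher (5%) and 0 lower. That gene was Cyp2f2, a lung cytochrome, at 1.69 ± 0.54, and its call was lost after centring (adjusted p = 0.0768, limma) and without the first cycloheximide, the second strontium or the third strontium array (adjusted p from 0.0638 to 0.0739, limma). Of 8 skeletal and heart muscle genes 0 were called higher and 1, Mef2c, lower at -3.72 ± 0.95. By the adjusted p against 0, 1 was higher, 2 were lower and 1 had probes both ways. Of 3 measured cumulus and granulosa cell genes, Inhbb, an inhibin and activin subunit, was lower at -2.71 ± 0.74, Cyp11a1, of steroid synthesis, stood at 0.62 ± 0.47, and the list median of 0.048 changed sign under 7 of the alternatives.

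Immune and blood cell genes had 1 of 28 called higher (3.57%) and 5 lower (17.9%), with a median of -0.062 that changed sign under 3 alternatives. The higher gene was Ly86, a partner of a Toll-like receptor relative, at 1.65 ± 0.54, a call lost after centring (adjusted p = 0.103, limma) and without any 1 of 5 arrays (all but the third strontium array, adjusted p from 0.0663 to 0.102, limma). The lower genes included Ptprc, the pan-leukocyte marker CD45, at -3.41, -2.97, -1.44, -2.52, -3.36 and -2.14, the chemokine Cxcl12 by 1 probe at -4.26 ± 0.70, and the lymphocyte transcription factor Irf4 at -2.64 ± 0.42. The organ list had 2 genes called higher with the group means model and with array weights. The part of such cells in the other ratios was not tested.

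**Figure D4:**
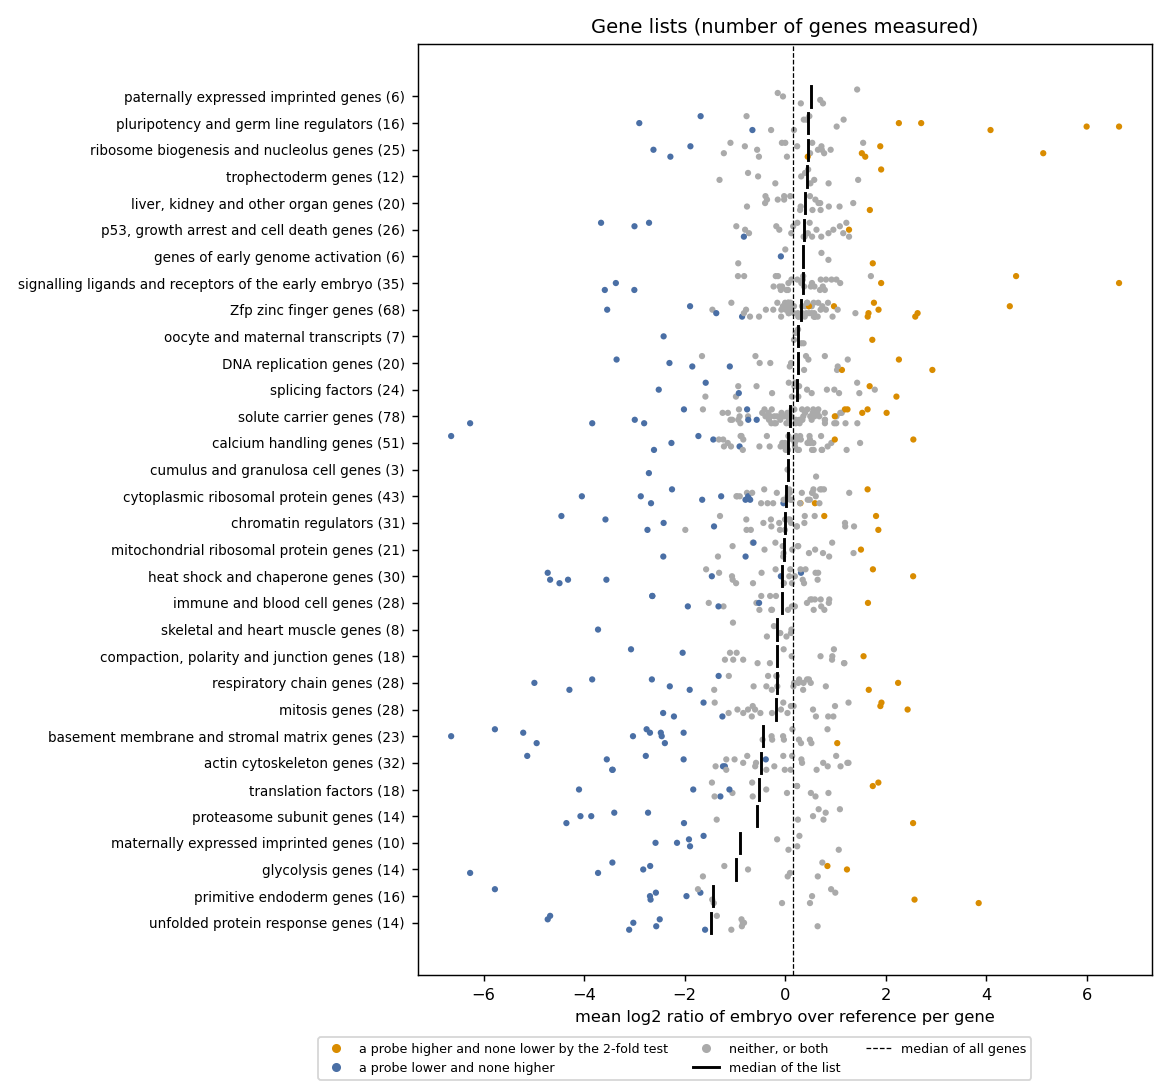
Mean log2 ratio of embryo over reference per gene (x axis, probes averaged) for the 32 lists (y axis, number of genes in parentheses), ordered by list median (black bars). Orange and blue points are genes with probes called higher or lower by the 2-fold test, grey points are genes with neither or both, and the dashed line is the median of all genes at 0.15. The unfolded protein response list lies lowest at -1.47, with 7 of 14 genes called lower.

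Over all 4630 genes 1920 were higher and 1188 lower by the adjusted p against 0, and 307 and 601 by the 2-fold test. Several lists likewise had a balance by the adjusted p other than that of the 2-fold test. Immune and blood cell genes had 10 higher and 7 lower, proteasome subunits 7 and 7, respiratory chain genes 10 and 10, and cytoplasmic ribosomal protein genes 13 and 9. Signalling ligands and receptors had 18 higher and 4 lower, solute carriers 32 and 18, calcium handling genes 18 and 14, and the p53, growth arrest and cell death list 13 and 6. Splicing factors had 11 higher and 7 lower, chromatin regulators 10 and 8, mitochondrial ribosomal protein genes 8 and 6, and DNA replication genes 9 and 7. Most of the higher genes of these lists were thus not called by the 2-fold test, which held over all genes too.

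The list with the lowest median held genes of the unfolded protein response and endoplasmic reticulum folding. Of 14 genes, 7 were called lower (50%) and 0 higher, with a median of -1.47 and 5 to 8 genes called lower across all alternatives. The chaperone Hspa5, also called BiP, measured -4.96, -5.02, -3.59, -4.81, -5.31 and -4.35, with a mean of -4.67 ± 0.62 (adjusted p of the 2-fold test = 1.25e-05, limma, n = 6). Its relative Hsp90b1 stood at -4.72 ± 0.47, the disulfide isomerases Pdia4 and Pdia3 at -3.02 and -2.56, and Derl2, of the export of misfolded proteins, at -3.10. Dnajb11, a co-chaperone of Hspa5, was the only gene of the list with a gene mean above 0, at 0.65 ± 0.40 and an adjusted p under 0.05. Of the others 11 were lower by the adjusted p against 0 and 1 had probes both ways.

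The heat shock and chaperone list, which shares Hspa5, Hsp90b1 and Dnajb11 with the one above, had 8 of 30 genes called lower (26.7%) and 2 higher (6.67%), with a median of -0.054. Outside the shared genes 6 of 27 were lower (22.2%) and 2 higher (7.41%). Cct2, of the chaperonin that folds actin and tubulin, stood at -4.49 ± 0.78. The cytosolic co-chaperones Dnaja1 and Dnajb6, in contrast, each had a probe called higher, at 3.76 ± 0.40 and 3.29 ± 0.46.

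Glycolysis genes were lower in part. Of 14 genes, 5 were called lower (35.7%) and 2 higher (14.3%), with a median of -0.97. Slc2a1, the glucose transporter GLUT1, measured -6.37, -6.26, -6.10, -6.64, -5.92 and -6.30, with 1 array at the limit and a mean of -6.27 ± 0.25 (adjusted p of the 2-fold test = 3.28e-07, limma, n = 6). The enzymes Pfkp (phosphofructokinase) at -3.72 ± 0.51, Pkm (pyruvate kinase) at -3.44 ± 0.58, Hk2 (hexokinase) at -2.82 and both probes of Pgm1 followed. The higher genes were Pgk1, by 1 of 3 probes at 3.57 ± 0.67, and Ldha, by 1 of 2 at 1.75 ± 0.69, the latter lost after centring (adjusted p = 0.133, limma) and without any 1 of 5 arrays (all but the first cycloheximide array, adjusted p from 0.0645 to 0.129, limma).

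Proteasome subunits had 6 of 14 genes called lower (42.9%) and 1 higher (7.14%), with a median of -0.55. Psma1 at -4.35 ± 0.67, Psmd14 at -3.86 ± 0.49 and both probes of Psmd2 were lower, as were Psmb8 at -4.07 ± 0.48 and Psmb9 at -2.73, which belong to the immunoproteasome. Psmd4, a ubiquitin receptor of the complex, was higher at 2.55 ± 0.45. Actin cytoskeleton genes had 9 of 32 called lower (28.1%) and 0 higher by the 2-fold test, with a median of -0.48. By the adjusted p against 0, 9 were higher, 16 were lower and 3 had probes both ways. Over all 4630 genes these counts were 1920, 1188 and 226. Flna, which crosslinks actin, stood at -3.55 ± 0.82, and the single probe of Actb measured -3.52, -2.81, -5.69, -2.10, -1.87 and -4.65, the third array of each group being lowest.

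The machinery of translation was lower for some probes and not for others. Cytoplasmic ribosomal protein genes had 10 of 43 called lower (23.3%) and 3 higher (6.98%) over 114 probes, with a median of 0.017 that changed sign under 9 alternatives. Rpl14 by 1 probe at -4.48 ± 0.32 and Rplp0 by 1 probe at -4.39 ± 0.77 were lower, whereas Rpl19 was higher by 1 probe at 2.47 ± 0.52. The other higher genes were Rpl7a at 2.24 ± 0.93 and Rpl21 at 1.75 ± 0.65, each by 1 probe, and both calls were lost with array weights or without the third array of either group, which left 1 higher gene. Removal of any 1 of 3 arrays ended the call of Rpl7a (adjusted p from 0.0519 to 0.056, limma) and of any 1 of 4 that of Rpl21 (adjusted p from 0.0813 to 0.104, limma). These genes have near-identical copies in the genome, so that a probe can also read a pseudogene. Translation factors had 4 of 18 called lower (22.2%) and 2 higher (11.1%). Eef2, the elongation factor that moves the ribosome, measured -4.15, -4.28, -3.96, -3.82, -4.23 and -4.16, and Eif4g3, an initiation scaffold, was higher by both probes, at 1.92 and 1.79, the first of which was lost after centring (adjusted p = 0.0525, limma) and without the second cycloheximide array (adjusted p = 0.0565, limma).

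In the mitochondrion, respiratory chain genes had 7 of 28 called lower (25%) and 2 higher (7.14%), with a median of -0.17. Atp5b, of the ATP synthase, stood at -4.29 ± 0.36 and Sdha, of complex II, at -3.84 ± 1.08, while Cox6b1, of complex IV, was higher at 2.25 ± 0.85. Mitochondrial ribosomal protein genes had 3 of 21 lower (14.3%) and 1 higher (4.76%), with a median of -0.029 that changed sign under 5 alternatives. Mrpl15 was lower at -2.42 ± 0.63.

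Ribosome biogenesis genes had more calls higher than lower. Of 25, 5 were called higher (20%), 3 lower (12%) and 1, Nop56, both ways, with a median of 0.45. With Nolc1, the higher genes were Surf6 by 1 probe at 2.16 ± 0.12, the methyltransferase Nop2 at 1.89 ± 0.42, Nol11 at 1.59 and the ribosomal DNA transcription factor Ubtf at 1.53. The lower genes were Polr1a, the large catalytic subunit of RNA polymerase I, at -2.62 ± 1.05, Nop58 at -2.28 ± 0.41 and Wdr12 at -1.88 ± 0.64, the last lost without the second strontium array (adjusted p = 0.0557, limma). On the cycloheximide arrays alone 3 genes were called higher and 1 lower, and once runs of 200 probe numbers were centred 3 were higher and 3 lower.

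Cell cycle genes were called in both directions. DNA replication genes had 3 of 20 higher (15%) and 4 lower (20%), with a median of 0.25. Ccne1, the cyclin that starts S phase, measured 2.57, 2.98, 2.98, 3.34, 2.91 and 2.80, with a mean of 2.93 ± 0.25 (adjusted p of the 2-fold test = 9.86e-06, limma, n = 6). Cdt1, which licenses replication origins, was higher at 2.26 ± 0.37 and Tk1, thymidine kinase, by 1 probe at 2.31 ± 0.19. The checkpoint gene Topbp1 at -3.35 ± 0.92, topoisomerase Top2a at -2.30 ± 0.66 and the polymerase subunit Pold2 at -1.85 ± 0.24 were lower.

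Among 28 mitosis genes, 3 were called higher (10.7%) and 4 lower (14.3%). The kinetochore motor Cenpe at 2.44 ± 0.46, the separase Espl1 at 1.92 ± 0.29 and Cdc20, an activator of the anaphase-promoting complex, at 1.90 ± 0.35 were higher. The kinase Cdk1 was lower by 1 probe at -3.01 ± 0.42, and the centromeric histone Cenpa at -2.43 ± 0.35. The list of p53, growth arrest and cell death genes had 1 of 26 called higher (3.85%) and 4 lower (15.4%), with a median of 0.38. Without the third cycloheximide array 2 were higher. The cell cycle inhibitor Cdkn1a, also called p21, measured -2.86, -2.84, -2.32, -3.07, -3.64 and -3.25, and Casp9, an initiator caspase, had a probe at 1.65 ± 0.38.

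Zfp zinc finger genes, many of them DNA-binding repressors, had 9 of 68 called higher (13.2%) and 4 lower (5.88%), with 52 of 68 gene means above 0 (76.5%) and a median of 0.31, beside 57.5% of gene means above 0 and a median of 0.15 over all genes. After centring, 6 were higher and 4 lower. Zfp740 stood at 4.47 ± 0.74, and Zfp33b had a probe at 3.47, 3.29, 3.38, 3.72, 3.53 and 3.51. Chromatin regulators had 3 of 31 higher (9.68%), 5 lower (16.1%), 1, Smarca5, both ways, and a median of -0.0030. The de novo DNA methyltransferase Dnmt3b was higher by 1 probe at 1.81 ± 0.41, and the deacetylase Hdac7 at -4.45 ± 0.35 and the acetyltransferase Hat1 at -3.57 ± 0.91 were lower. Ehmt1 was higher at 1.86, a call lost after centring (adjusted p = 0.0678, limma). It was also lost without any 1 of 5 arrays (all but the first strontium array, adjusted p from 0.0589 to 0.0726, limma). After centring, 2 chromatin regulators were higher and 6 lower. Splicing factors had 2 of 24 higher and 3 lower (8.33% and 12.5%), among them Prpf4b at 2.21 ± 0.61 and Snrpb2 at -2.51 ± 0.91.

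Imprinted genes are of interest here because both genomes of a parthenogenetic embryo are maternal. No biparental embryo was measured, so the ratios say how these transcripts stood against the reference pool and not against a fertilized embryo. Of 6 paternally expressed genes 0 were called in either direction by the 2-fold test, with 3 higher and 0 lower by the adjusted p against 0 and a median of 0.51. Snrpn, which encodes a splicing protein, stood at 1.43 ± 0.80, and the 2 probes of Xist, the long RNA of X inactivation, had a gene mean of 0.75. Of 10 maternally expressed genes 2 were higher and 5 lower by the adjusted p, with a median of -0.89. By the 2-fold test 5 were called lower (50%) and 0 higher. They were Gnas, a G protein subunit, by both probes at -2.02 ± 0.35 and -1.80, the adaptor Grb10 at -1.62, Ppp1r9a at -2.58, Gatm, of creatine synthesis, at -2.15 and Pon2 at -1.89, whose call was lost with the replicate block (adjusted p = 0.0816, limma) and the array weights (adjusted p = 0.0856, limma) and without any 1 of 4 arrays (all but the third cycloheximide and the second strontium array, adjusted p from 0.0906 to 0.111, limma). Meg3, a maternally expressed long RNA, stood at 1.07 ± 0.38.

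Calcium handling genes had 2 of 51 called higher (3.92%) and 6 lower (11.8%), with a median of 0.065 that changed sign under 2 alternatives. With arrays centred on their medians 0 were higher and 8 lower by limma's 2-fold test. The reticulum calcium-binding proteins Rcn1 and Rcn3 stood at -3.85 ± 0.76 and -2.61 ± 0.62, and Atp2b1, a plasma membrane calcium pump, had a probe at -2.56 ± 0.93. The higher genes were the phospholipase Plcd4 at 2.55 ± 1.35 and the exchanger Slc8a1, whose probe stood at 1.65 ± 0.54, and both calls were lost after centring (adjusted p = 0.0516 and 0.123, limma). The call of Plcd4 was also lost without any 1 of 4 arrays (adjusted p from 0.062 to 0.0833, limma), as was that of Slc8a1 (adjusted p from 0.0859 to 0.1, limma), and 0 genes were higher without the third cycloheximide or the second strontium array. Solute carriers had 6 of 78 higher (7.69%) and 8 lower (10.3%), with 2 higher and 10 lower after centring and 3 higher without any 1 of the strontium arrays. Slc26a1, an anion exchanger, stood at 2.02 ± 0.60, and the amino acid transporter Slc38a2 at -3.84 ± 1.03.

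Probes of a single gene often disagreed by more than the arrays did. Of 954 genes with several probes, the gap between the highest and the lowest probe mean had a median of 0.97, and 231 genes (24.2%) had a gap over 2. The SD between the probes of a gene had a median of 0.63, against 0.36 between arrays for the same probes. Of 271 such genes with a 2-fold call, 6 had every probe higher, 13 had every probe lower, 6 had probes called both ways, and in 246 some probes were called and others were not. In 108 of the 271 another probe was called the opposite way at an adjusted p under 0.05. A statement on a gene with several probes therefore holds for the probe named.

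The widest of the opposite pairs was in Cstf3, a cleavage factor of mRNA 3′ ends. Its lowest probe measured -2.58, -2.99, -4.47, -6.64, -6.64 and -5.64, and its highest 2.75, 2.59, 2.62, 3.48, 3.18 and 2.34. The means of -4.83 and 2.83 lay far beyond the spread of either probe, and the remaining probe stood at 1.30. Pign, of GPI anchor synthesis, had probes at -4.49 ± 1.42 and 2.04 ± 0.69, and the histone methyltransferase Kmt2c at -3.43 ± 1.23, -0.35 ± 0.49 and 2.53 ± 0.68. The others were Set, Smarca5 and Nop56, whose probes lay at -2.08 ± 0.32 and 2.08 ± 0.25.

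Genes often taken as constant were not uniform either. Gapdh had 4 probes with means from -0.50 to 0.67, of which 2 changed sign after centring or on the cycloheximide arrays alone. Pgk1 had probes at -0.38 ± 0.80, 0.51 ± 0.11 and 3.57 ± 0.67. Gusb, a lysosomal enzyme, stood at -0.80 ± 1.00 and was not called by either test. Actb and Sdha, at -3.44 and -3.84, were called lower by the 2-fold test.

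**Figure D5:**
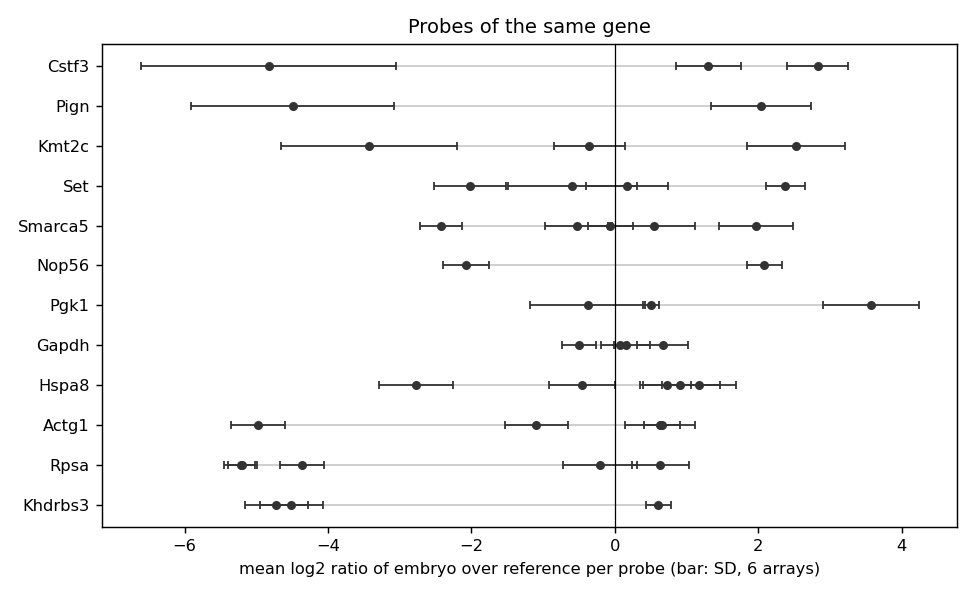
Mean log2 ratio of embryo over reference of each probe (x axis, points, with bars for the SD over 6 arrays) for 12 genes with several probes (y axis, gene symbols). The probes of Cstf3 span -4.83 to 2.83 and those of Nop56 lie at -2.08 and 2.08, while the 4 probes of Gapdh stay between -0.50 and 0.67.

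Probes without a single gene symbol were counted as classes. Of 9159 tested probes with several symbols, 3229 were higher (35.3%) and 3222 lower (35.2%) by the adjusted p against 0, and 653 were called higher by the 2-fold test (7.13%) and 1369 lower (14.9%). Of 6000 probes not listed in the annotation, 3058 were higher (51%) and 1173 lower (19.6%) by the adjusted p, and 618 were higher (10.3%) and 495 lower (8.25%) by the 2-fold test. Of these 3 classes, the unlisted probes alone had more 2-fold calls on the embryo side, and the difference between the classes was not tested. None of these probes is named here.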

How the data were processed

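Transcripts were measured on 6 Agilent arrays with 2 colours, and the deposited table holds 1 column of log10 ratios per array for 22132 probes, made by the authors with Agilent Feature Extraction per the submitters' processing notes. Its settings and the genome build remain not given in the sources used here. Each deposited log10 ratio was reversed in sign and scaled by 3.32, so that it became a log2 ratio of embryo over reference, and no normalization was added. The 1065 probes at exactly 0 on any array were left out, since 0 is taken as a ratio that was not set, which left 21067. Precision is limited by the number of arrays.

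The mean over 6 arrays was tested against 0 with limma 3.58.1 (lmFit and eBayes) and against a 2-fold difference with its treat function, in R 4.3.3, with p-values adjusted by Benjamini-Hochberg over the whole table at a threshold of 0.05. The fit was tested on simulated data. Probes were named through the platform annotation where it gave exactly 1 symbol, and 6179 of 6249 such probes matched the mouse gene table of GRCm38.p6 by gene ID. Probes of a gene were averaged for list medians, and 15 genes were left out of the family lists by name. Promoters came from RefSeq on GRCm38.p6. Python 3.11.15 with pandas 2.3.3, NumPy 2.4.6 and matplotlib 3.10.9 made the summaries and plots.

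The members and lists were chosen with earlier results of these data known. Named genes were those at the limit on all arrays, the 25 largest means per direction called by the 2-fold test with no array at the limit, up to 4 probes per direction of each list, the 5 markers, genes with probes called both ways, and genes of every cell. List members named beyond these were chosen after their values were seen. The 3 arrays of each group share replicate numbers, but the main test did not treat same-numbered arrays as paired. Their deviations from the group means correlated at 0.058, 0.40 and 0.51 for replicates 1, 2 and 3. Cycloheximide replicate 3 correlated at 0.915 with strontium replicate 3, and at 0.771 and 0.816 within its group. Cycloheximide replicates 1 and 2 correlated most with each other, at 0.958. The replicate 3 arrays had the widest interquartile ranges (1.63 and 1.62) and most values at the limit (174 and 133). Why same-numbered arrays were alike was not tested. The alternatives were zeros kept, probes at the limit left out, centred arrays, centred runs of 200 probe numbers (with the array median put back, added after seeing the data), a group means model, each group alone, a replicate block, array weights, each array left out and probes averaged by gene.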

Additional observations from a re-analysis of the deposited data

How the results depend on the processing

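Without any single array 7794 to 8657 probes were higher and 5439 to 5802 lower at an adjusted p under 0.05, and 1397 to 1623 were higher and 2215 to 2433 lower by the 2-fold test. Of the 1591 and 2497 probes called by that test, 1328 and 2150 kept the call, in the same direction, whichever array was left out, as did 7499 of 8735 and 5235 of 5903 by the adjusted p. The largest falls in probes came with the cycloheximide arrays alone, which gave 4358 higher probes, 960 higher by the 2-fold test and 1574 lower by it. The strontium arrays alone, also 3 in place of 6, gave 7099, 1461 and 2123. With probes averaged by gene, which leaves 4630 genes, 1859 were higher and 1258 lower, and 239 were higher and 484 lower by the 2-fold test. The replicate block gave 8201 and 5607 probes, and 1458 and 2345 by the 2-fold test. Centred arrays gave 6730 higher and 7021 lower probes.

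Of 4802 values of the 283 named probes under the alternatives, 29 changed sign (22 probes) and 117 lost the adjusted p (54 probes). Of the 196 named probes called by the 2-fold test, 23 lost that call under at least 1 alternative that kept single probes and at least 5 arrays. Averaging by gene set a probe against its gene mean and gave -0.084 for Hspa8, -0.36 for Actc1, -0.16 for Uqcrc2, -0.10 for Smarca5, -0.86 for Atf6b, 0.0039 for Nop56, 0.31 for Impact, -0.23 for Cstf3, -0.42 for Kmt2c, -1.23 for Pign, -0.017 for Set, 0.098 for Gapdh and 1.23 for Pgk1. Centred arrays gave -0.013 for Set and -0.10 and -0.030 for 2 probes of Gapdh. Centred runs gave -0.0047 for Tcl1b1, -0.030 for Set and -0.24 for Gapdh (-0.058 with the array median put back). The cycloheximide arrays alone gave 0.075 for Kmt2c, -0.22 for Set and -0.063 for Gapdh. Without each array in turn, Set ranged from -0.014 (without strontium replicate 1) to 0.30 and Smarca5 from -0.14 to 0.011 (without strontium replicate 2). The cause was not tested beyond what each alternative removes. Of 544 list medians under the alternatives, 28 had the other sign, in 6 lists whose medians lie near 0.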
